A study of Mus musculus with 6 samples.

Results

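The small leucine-rich proteoglycans are secreted matrix proteins, and 9 of their genes were followed here in plaque of the mouse aortic arch: Dcn, Bgn, Aspn, Lum, Fmod, Prelp, Omd, Ogn and Podn. They were chosen by gene symbol, and all 9 were found among the 24062 genes of the deposited count table. All 9 also passed the filter on low counts, which kept 15222 genes. Each member had between 627 and 599196 reads in every library, so counting error was small beside the spread between libraries.

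Bulk RNA came from C57BL/6 mice that lack the low-density lipoprotein receptor, a strain that builds up cholesterol-rich plaque when fed fat. Both groups carried this knockout. Their diet was TD88137, rich in fat, over 12 weeks, followed by 3 weeks of low-fat food. The Vehicle group has 3 libraries. The ABT263 group has 3 libraries from mice given ABT263 at 100 mg/kg into the peritoneum, 1 time daily, in week 1 of the low-fat period. ABT263 (navitoclax) inhibits survival proteins of the BCL-2 family and is used to kill senescent cells. The labels give neither age nor sex, nor whether each library is 1 animal, so the p-values below rest on differences between libraries that could be partly technical. In bulk tissue, fewer cells of a type and less RNA per cell cannot be told apart.

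Proteins of this family have a curved core of leucine-rich repeats that grips collagen fibrils and sets their width and spacing. Many carry chains of chondroitin, dermatan or keratan sulfate. In the artery wall these chains bind lipoproteins, and the cores bind growth factors of the TGF-beta family. By sequence, Dcn, Bgn and Aspn form class I, Lum, Fmod, Prelp and Omd class II, Ogn class III and Podn class V. In the artery they are made mainly by smooth muscle cells and fibroblasts.

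The libraries held between 62930547 and 110452098 reads, and several stood apart in cell type marker genes. Contractile smooth muscle genes (9 of 9 kept, none at 0) summed to 2622, 2981 and 3618 CPM with Vehicle and to 2414, 15851 and 9795 CPM in ABT263 replicates 1 to 3, where CPM is the library-scaled read count after TMM scaling. White adipocyte genes (6 of 7 kept) summed to 4009 CPM in ABT263 replicate 2 against 63.8 to 286 CPM in the other libraries, and Lep was at 0 in some of those. Nearly all of the sum in those other libraries was Fabp4, at 60.2 to 285 CPM. Each other gene of the list was at or below 2.61 CPM there, and Adipoq was at 356 CPM in ABT263 replicate 2. Adventitial fibroblast genes (8 of 8 kept, none at 0) summed to 5892 CPM in ABT263 replicate 2 against 1055 to 1592 CPM elsewhere. Skeletal muscle genes (7 of 7 kept) summed to 41.7 CPM in ABT263 replicate 3 against 6.30 to 8.64 CPM elsewhere. Endothelial genes (7 of 7 kept) summed to 410 CPM in Vehicle replicate 2 against 1705 to 4863 CPM elsewhere. Macrophage genes (11 of 11 measured) summed to 11501 to 20415 CPM with Vehicle and to 5000 to 10972 CPM with ABT263, and cartilage genes (9 of 11 kept, with Matn1 and Matn3 at 0 in some libraries) to 1440 to 2456 CPM and 708 to 1276 CPM. Both sums were lower in every ABT263 library than in any Vehicle library.

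Biglycan was the most abundant member per length of exon, and podocan and osteomodulin the least. With Vehicle, Bgn stood at 808 ± 82.5 CPM per kb (SD, n = 3), Lum at 435 ± 83.9, Dcn at 244 ± 77.9, Prelp at 173 ± 15.1, Fmod at 75.0 ± 17.5 and Ogn at 18.0 ± 5.19 CPM per kb. Aspn stood at 10.2 ± 0.953, Omd at 8.85 ± 3.47 and Podn at 5.79 ± 1.42 CPM per kb. Each of the first 6 genes in this order was above the next in all 3 Vehicle libraries, with no overlap of ranges, although Dcn and Prelp came within 187.5 and 187.2 CPM per kb of each other. The ranges of Aspn and Omd overlapped, as did those of Omd and Podn. Over all 6 libraries Bgn lay above 99.8% of the 14495 kept genes that had an annotated length, and Omd above 61.3%. With ABT263 the means were 991 ± 335 CPM per kb for Bgn, 621 ± 462 for Lum, 362 ± 118 for Dcn, 226.5 ± 110 for Prelp, 78.2 ± 67.3 for Ogn and 46.4 ± 24.5 for Fmod. Aspn stood at 19.0 ± 9.57, Podn at 8.58 ± 5.80 and Omd at 5.06 ± 1.19 CPM per kb. By the means Ogn and Fmod thus changed places in the order, as did Podn and Omd, and every pair of neighbours in the order overlapped. In ABT263 replicate 1 Ogn was still below Fmod (16.4 against 19.4 CPM per kb) and Podn below Omd (3.64 against 4.98). In ABT263 replicate 3 Ogn and Fmod were close, at 68.3 and 67.2 CPM per kb. Podn was already above Omd in Vehicle replicate 1 (6.31 against 5.81 CPM per kb).

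**Figure D1:**
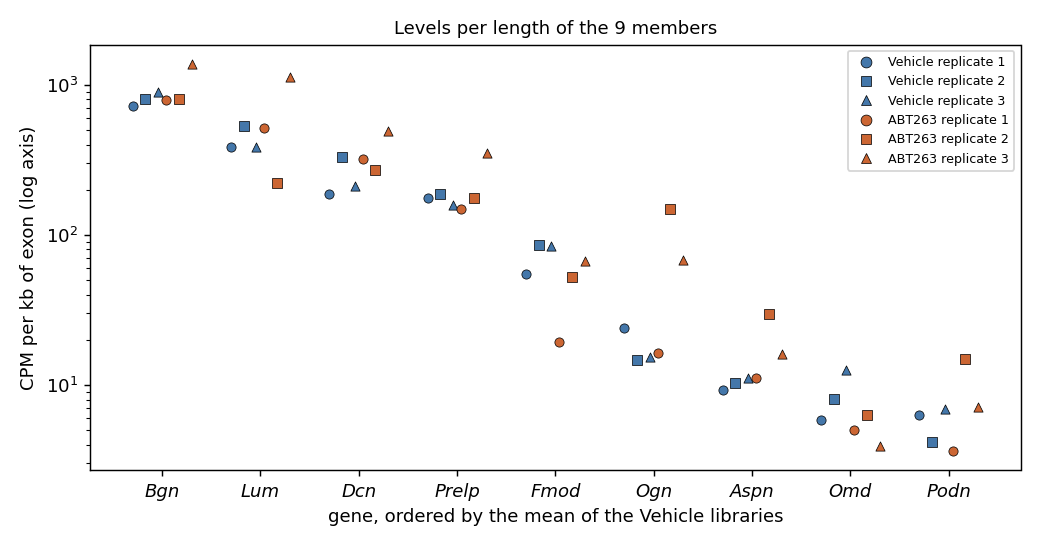
Level of each member per kb of exon (CPM after TMM scaling, log axis) in each of the 6 libraries, genes ordered by the Vehicle mean. Colour gives the group and shape the replicate. Bgn, Lum, Dcn and Prelp sit above the other 5 genes in every library, and Ogn comes nearest to them in ABT263 replicate 2, at 150 CPM per kb.

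Together the 9 genes took 0.688%, 0.901% and 0.862% of all reads with Vehicle, against 0.917%, 0.894% and 1.53% with ABT263. Their sum was therefore highest in ABT263 replicate 3. Per length, Bgn made up 40.8% to 50.1% of the family's summed level with Vehicle and 39.2% to 46.5% with ABT263. Ogn made up 1.52%, 0.740% and 0.861% with Vehicle and 0.891%, 8.72% and 1.94% with ABT263, so ABT263 replicate 2 had the different mixture. In that library Lum, at 12.8% of the sum, had its smallest share, against 21.8% to 32.0% in the others.

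The design asks whether ABT263 altered plaque RNA, and none of the 9 genes differed between the groups past the threshold. The edgeR quasi-likelihood test with Benjamini-Hochberg adjustment called 0 of 9 members and 0% of the 15222 genes tested, with a smallest adjusted p of 0.592 among the members. limma-voom also called 0% of all genes and no member. DESeq2 called 1.01% of all genes and 0 of 9 members, the smallest adjusted p being 0.0975, for Ogn. Genes to which DESeq2 gave no adjusted p counted as not called, and each member had an adjusted p. At an unadjusted p under 0.05 edgeR listed Aspn and Ogn, 2 of 9, where it listed 8.38% of all genes. The groups did not overlap for 1 of 9 members, Aspn, against 12% of all genes. Log2 fold changes (ABT263 over Vehicle) were positive for 7 members and negative for 2, with a median of 0.52, against a median of 0.0008 and 50.1% positive over all genes. Neighbouring members share libraries and cells, so these counts are a description.

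**Figure D2:**
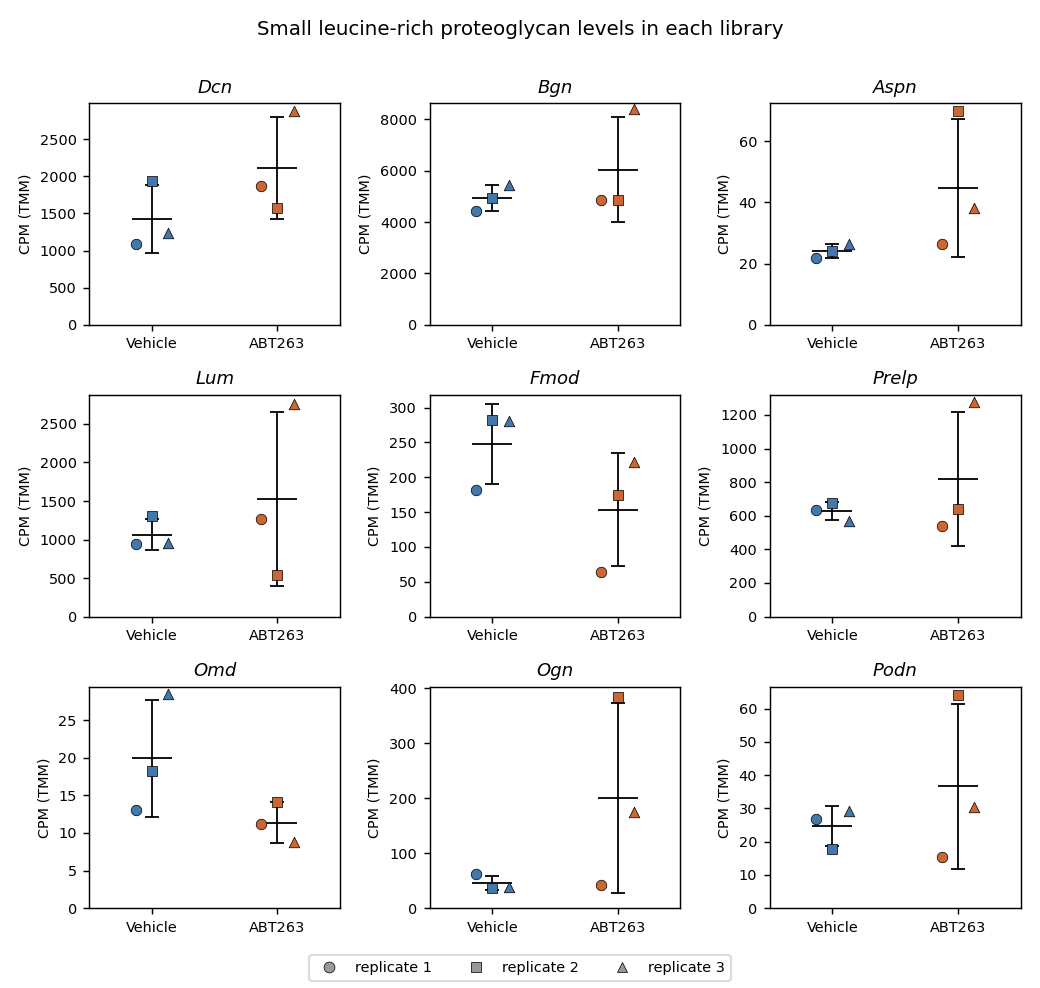
CPM after TMM scaling of each member by group, with a linear axis for each gene. Points are libraries, and the horizontal mark with its bar is the group mean ± SD (n = 3). Dcn, Bgn, Lum and Prelp are highest in ABT263 replicate 3, Aspn, Ogn and Podn in ABT263 replicate 2, Fmod in Vehicle replicate 2 and Omd in Vehicle replicate 3.

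Among class I genes, Dcn encodes decorin, which decorates type I collagen fibrils and sequesters TGF-beta (chromosome 10, 97479609 to 97518143, mm10). It stood at 1095, 1944 and 1236 CPM with Vehicle and at 1874, 1571 and 2887 CPM with ABT263. ABT263 replicate 3 was the highest and Vehicle replicates 1 and 3 the lowest, but Vehicle replicate 2 lay inside the ABT263 range. Its log2 fold change was 0.57 (SE 0.39, edgeR adjusted p = 0.740), and it ranged from 0.27 without ABT263 replicate 3 to 0.85 without Vehicle replicate 2.

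Bgn encodes biglycan, which binds apolipoprotein-bearing lipoproteins in plaque and, once released, signals through Toll-like receptors (chromosome X, 73483602 to 73495933). It stood at 4424, 4929 and 5430 CPM with Vehicle and at 4849, 4879 and 8404 CPM with ABT263. All libraries but ABT263 replicate 3 lay within the Vehicle range. For Bgn the log2 fold change was 0.29 (SE 0.41, edgeR adjusted p = 0.900), and -0.020 without ABT263 replicate 3.

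Aspn encodes asporin, a relative of decorin with an aspartate-rich start and no sulfated chain, which binds collagen and TGF-beta (chromosome 13, 49544443 to 49567565). It stood at 21.9, 24.1 and 26.36 CPM with Vehicle and at 26.38, 69.9 and 38.1 CPM with ABT263. Every ABT263 library was above every Vehicle library, but ABT263 replicate 1 only by the second decimal, and the groups overlapped with RLE size factors. Its log2 fold change was 0.89 (SE 0.36, unadjusted p = 0.0429, edgeR adjusted p = 0.592), and 0.42 without ABT263 replicate 2.

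Among class II genes, Lum encodes lumican, a keratan sulfate proteoglycan best known from the transparent cornea (chromosome 10, 97565128 to 97572703). It stood at 940, 1301 and 951 CPM with Vehicle and at 1268, 539 and 2756 CPM with ABT263. The ABT263 libraries held both the lowest and the highest value. The log2 fold change of 0.52 (SE 0.58, edgeR adjusted p = 0.863) became -0.24 without ABT263 replicate 3 and 0.92 without ABT263 replicate 2.

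Prelp encodes a protein with a proline- and arginine-rich start that binds heparan sulfate and is thought to anchor basement membranes to collagen (chromosome 1, 133910304 to 133921414). It stood at 636, 677 and 568 CPM with Vehicle and at 540, 641 and 1275 CPM with ABT263. Here too ABT263 replicate 3 alone was above the Vehicle libraries. For Prelp the log2 fold change was 0.39 (SE 0.37, edgeR adjusted p = 0.837), and -0.087 without ABT263 replicate 3. An antisense transcript, Gm15851, shares 350 exon bases with Prelp, and the library kit does not mark strand, so its reads cannot be told apart from those of Prelp there.

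In ABT263 replicate 3, where Dcn, Bgn, Lum and Prelp were all highest, the 15 fibril-forming collagens and partners summed to 19739 CPM, against 7071 to 12441 CPM with Vehicle and 6724 and 8932 CPM in ABT263 replicates 1 and 2. Spp1 (osteopontin) was also highest there, at 13670 CPM against 1149 to 8041 CPM elsewhere, and set the sum of the bone marker list, 13699 CPM. The other bone genes did not share this: Ibsp (25.3 CPM) and Alpl (2.86 CPM) were at their lowest of the 6 libraries there, and Sp7 (1.02 CPM) was below every Vehicle library. Of all genes tested, 11.1% were highest in that library. The part of these levels in the values of Dcn, Bgn, Lum and Prelp was not tested.

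Fmod encodes fibromodulin, which guides collagen cross-linking and is abundant in tendon (chromosome 1, 134037254 to 134048277). It stood at 181, 283 and 280 CPM with Vehicle and at 64.2, 174 and 222 CPM with ABT263. ABT263 replicate 1 was the lowest by far, and ABT263 replicate 3 lay inside the Vehicle range. The log2 fold change was -0.69 (SE 0.46, edgeR adjusted p = 0.724), and it ranged from -1.06 to -0.33 when 1 library was left out, the smallest size being without ABT263 replicate 1. Tendon genes (4 of 5 kept, with Tnmd and Thbs4 at 0 in some libraries) summed to 35.6 to 60.8 CPM with Vehicle and to 48.7 to 89.1 CPM with ABT263. Fibin (log2 fold change 0.64) made up most of these sums. The kept genes of the list were split, 2 positive and 2 negative, with a median log2 fold change of -0.086.

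Omd encodes osteomodulin, a keratan sulfate proteoglycan of bone that binds mineral (chromosome 13, 49582462 to 49592822). It stood at 13.1, 18.3 and 28.4 CPM with Vehicle and at 11.2, 14.2 and 8.79 CPM with ABT263. The groups overlapped because ABT263 replicate 2 was above Vehicle replicate 1. For Omd the log2 fold change was -0.81 (SE 0.34, unadjusted p = 0.0506, edgeR adjusted p = 0.592), and it stayed between -1.04 and -0.47 when 1 library was left out. The cartilage sum, given above, was lower in every ABT263 library, with Col2a1 as its largest part. All 9 kept cartilage genes had negative log2 fold changes, but only 4 were without overlap, against 12% of all genes. Comp was highest in ABT263 replicate 3, at 367 CPM. Among ABT263 libraries the cartilage sum was highest in replicate 3 (1276 CPM), where Omd was lowest. The part of cartilage genes in the Omd values was not tested. The bone list (4 of 7 kept, with Bglap, Bglap2 and Dmp1 at 0 in some libraries) was mixed. Sp7 and Ibsp had lower values in every ABT263 library, Alpl overlapped between the groups (log2 fold change -0.80), and Spp1 had a positive log2 fold change of 0.22.

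Ogn, the class III gene, encodes osteoglycin (mimecan), a small glycoprotein made by vascular smooth muscle cells that helps to shape collagen fibrils (chromosome 13, 49608046 to 49624501). It stood at 61.5, 37.7 and 39.3 CPM with Vehicle and at 42.0, 385 and 175 CPM with ABT263. ABT263 replicates 2 and 3 were far above the Vehicle libraries, while replicate 1 lay inside their range. The log2 fold change of 2.12 was the largest in size among the 9 members (SE 0.73, unadjusted p = 0.0246, edgeR adjusted p = 0.592), and it was 1.25 without ABT263 replicate 2 and 2.60 without ABT263 replicate 1.

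Podn, the class V gene, encodes podocan, reported in mice to restrain smooth muscle growth in injured arteries (chromosome 4, 108014791 to 108096445). It stood at 27.0, 17.9 and 29.3 CPM with Vehicle and at 15.5, 63.9 and 30.4 CPM with ABT263. ABT263 held the lowest and the highest library. The log2 fold change of 0.57 (SE 0.50, edgeR adjusted p = 0.817) was -0.099 without ABT263 replicate 2.

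Aspn, Ogn and Podn peaked in ABT263 replicate 2, which also had the highest sums of contractile smooth muscle, adipocyte and adventitial fibroblast genes, and 24.9% of all genes tested were highest there. Ogn and the contractile sum had the same 2 highest libraries, ABT263 replicates 2 and 3. The part of these marker genes' cells in the values of Aspn, Ogn and Podn was not tested.

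**Figure D3:**
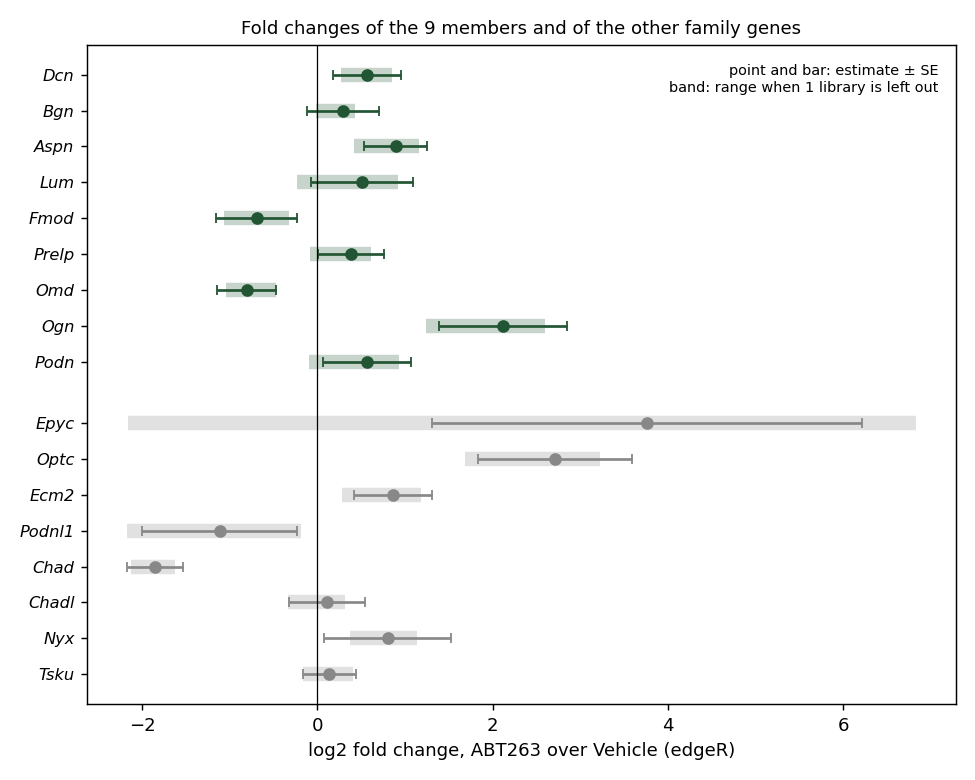
Log2 fold change (ABT263 over Vehicle) of the 9 members (green) and of the 8 other family genes that passed the count filter (grey). Points and bars are the edgeR estimate ± SE, and bands span the fits that left out 1 library. The bands of Bgn, Lum, Prelp and Podn cross 0, while those of Dcn, Aspn and Ogn stay above it and those of Fmod and Omd below it.

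Most members sit beside a relative on their chromosome, and some neighbours differed in their pattern over the libraries. On chromosome 13 the order is Ecm2, Aspn, Omd, Ogn, all on the plus strand, with gaps of 11.7, 14.9 and 15.2 kb. Ecm2, a matrix protein of the decorin class, stood at 42.3, 39.1 and 59.5 CPM with Vehicle and at 42.7, 143 and 70.9 CPM with ABT263. Ecm2, Aspn and Ogn thus had ABT263 replicate 2 highest and replicate 3 next, whereas Omd, which lies between Aspn and Ogn, was lowest in ABT263 replicate 3. The difference of Omd and Ogn in log2 CPM centred on each gene's mean had a root mean square of 1.585 over the 6 libraries, the largest among the 36 pairs of members. Lum and Ogn, on different chromosomes, came next at 1.56. Bgn and Prelp, also on different chromosomes, differed least, at 0.193. This measure also grows with how much each gene varied. The root mean square of the centred values themselves was largest for Ogn (1.27) and smallest for Bgn (0.303). Cenpp, on the opposite strand, spans Ecm2, Omd and Ogn and shares 7 exon bases with Aspn.

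The 250 bases before the RefSeq start sites of these 3 neighbours (GRCm38.p6, written 5′ to 3′ on the gene's strand) are shown because the genes are adjacent and differed in pattern. Capitals mark matches to the motifs listed after them.
Aspn (chr13:49544193-49544442, plus strand): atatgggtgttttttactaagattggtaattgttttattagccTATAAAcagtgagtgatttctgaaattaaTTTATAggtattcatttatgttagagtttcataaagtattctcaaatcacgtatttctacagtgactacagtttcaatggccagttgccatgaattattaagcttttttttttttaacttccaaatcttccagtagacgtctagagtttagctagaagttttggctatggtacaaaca
Omd (chr13:49582212-49582461, plus strand): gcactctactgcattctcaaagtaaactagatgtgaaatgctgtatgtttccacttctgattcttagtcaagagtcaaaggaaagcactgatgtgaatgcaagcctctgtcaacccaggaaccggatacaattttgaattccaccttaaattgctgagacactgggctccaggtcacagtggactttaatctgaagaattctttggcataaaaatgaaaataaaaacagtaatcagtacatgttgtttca
Ogn (chr13:49607765-49608014, plus strand): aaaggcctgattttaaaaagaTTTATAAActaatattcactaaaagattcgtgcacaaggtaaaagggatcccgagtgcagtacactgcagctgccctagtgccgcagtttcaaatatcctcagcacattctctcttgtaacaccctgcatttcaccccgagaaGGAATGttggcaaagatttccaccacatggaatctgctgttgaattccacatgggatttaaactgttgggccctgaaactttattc

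The motifs searched on both strands were the TATA box TATAAA, the TEAD element CATTCC, the AP-1 site TGANTCA, the SMAD element CAGAC and the CArG box, the element of serum response factor. The Ogn window held a TEAD element at bases 86 to 81 before the start, on the minus strand, and TATA box letters on both strands, ending at bases 224 and 222, where the matches overlap. The Aspn window held TATA box letters at bases 207 to 202 and, on the minus strand, 178 to 173. The Omd window held none of the 5 motifs. Of 32851 promoter windows of this length, 12.4% held the TATA box letters, 12.6% the TEAD element, 6.75% the AP-1 site, 42.2% the SMAD element and 1.47% the CArG box. RefSeq windows were matched for 7 of the 9 members, and Dcn and Lum had none. A match is a string of letters, not a measured binding site.

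On chromosome 1 the order is Optc, Prelp, Fmod, with Prelp on the minus strand and Fmod on the plus strand 116 kb away. The count of Prelp over that of Fmod in the same library was 3.51, 2.39 and 2.03 with Vehicle and 8.41, 3.69 and 5.74 with ABT263, so every ABT263 library was above every Vehicle library. The mean log2 ratio differed by 1.13 (exact two-sided permutation p = 0.1, the smallest that 3 against 3 allows, and 0.533 adjusted over the 8 ratios tested). This ratio does not depend on the scaling, and the difference stayed between 0.84 and 1.43 when 1 library was left out. In centred log2 CPM, Prelp and Fmod differed by a root mean square of 0.701, against 1.585 for Omd and Ogn. Their promoter windows are shown because their ratio did not overlap between the groups, and both hold the SMAD element letters.
Prelp (chr1:133921402-133921651, minus strand): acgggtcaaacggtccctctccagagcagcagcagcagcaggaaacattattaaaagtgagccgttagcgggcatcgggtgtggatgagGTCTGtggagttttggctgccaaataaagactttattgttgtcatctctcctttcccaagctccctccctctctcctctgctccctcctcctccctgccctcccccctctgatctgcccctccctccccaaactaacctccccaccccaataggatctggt
Fmod (chr1:134037004-134037253, plus strand): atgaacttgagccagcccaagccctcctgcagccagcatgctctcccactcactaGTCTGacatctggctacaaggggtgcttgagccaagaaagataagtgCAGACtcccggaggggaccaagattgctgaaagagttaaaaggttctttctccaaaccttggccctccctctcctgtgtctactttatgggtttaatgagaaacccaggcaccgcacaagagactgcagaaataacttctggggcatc

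**Figure D4:**
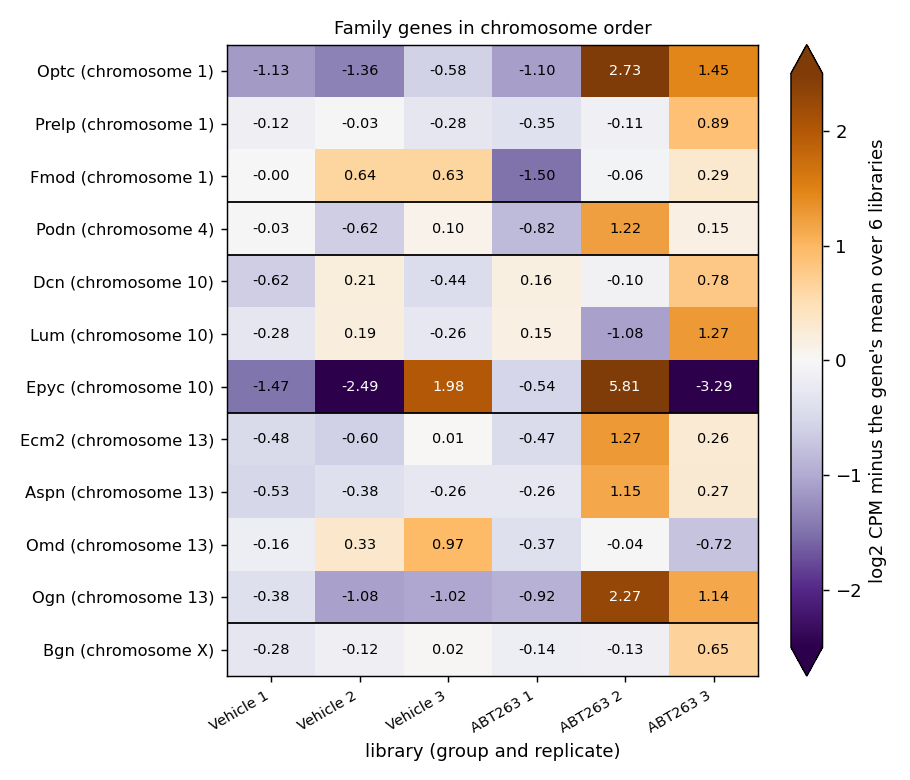
Log2 CPM of 12 family genes in each library minus the gene's own mean over the 6 libraries, ordered by chromosome and position, with colours cut at -2.5 and 2.5. Ogn reads 2.27 and 1.14 in ABT263 replicates 2 and 3, where its neighbour Omd reads -0.04 and -0.72. Dcn, Lum, Prelp and Bgn have their highest value in ABT263 replicate 3.

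The other ratios overlapped between the groups. Omd over Ogn was 0.212, 0.485 and 0.724 with Vehicle and 0.267, 0.0368 and 0.0502 with ABT263, so ABT263 replicates 2 and 3 were low and replicate 1 was not (difference of mean log2 ratio -2.41, exact permutation p = 0.2, adjusted p = 0.533). Bgn over Dcn was 4.04, 2.54 and 4.39 with Vehicle and 2.59, 3.11 and 2.91 with ABT263 (difference -0.31, exact permutation p = 0.4, adjusted p = 0.64). Fmod over Lum, whose proteins share a binding site on collagen, was 0.193, 0.217 and 0.295 with Vehicle and 0.0507, 0.323 and 0.0806 with ABT263 (difference -1.08, exact permutation p = 0.4, adjusted p = 0.64). Aspn over Ogn differed by -0.88 (exact permutation p = 0.2, adjusted p = 0.533). Lum, Aspn and Podn over Dcn differed by -0.33, 0.21 and -0.20, with exact permutation p of 0.7, 0.8 and 0.9 and an adjusted p of 0.9 for each.

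**Figure D5:**
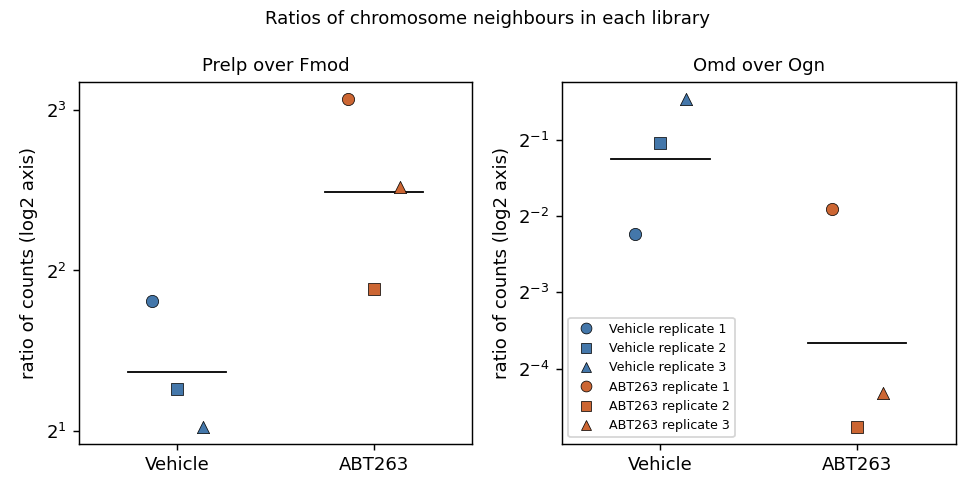
Ratio of read counts of Prelp to Fmod and of Omd to Ogn in each library (log2 axis), with lines at the mean of the log2 ratios of each group (n = 3). The Prelp to Fmod ratio is at least 3.69 in the 3 ABT263 libraries and at most 3.51 with Vehicle, and the Omd to Ogn ratio overlaps through ABT263 replicate 1.

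Of the 9 other genes of the family, 8 passed the count filter. By edgeR 0 of 8 passed in either direction (6 positive, 2 negative, median log2 fold change 0.47), and by DESeq2 Chad alone passed. DESeq2 gave no p-value for Epyc. Chad, chondroadherin of cartilage, stood at 96.7, 133 and 176 CPM with Vehicle and at 49.9, 28.2 and 34.03 CPM with ABT263, with no overlap (log2 fold change -1.85, SE 0.32, edgeR adjusted p = 0.592, DESeq2 adjusted p = 0.00025). Optc, opticin of the vitreous of the eye, stood at 2.08, 1.77 and 3.06 CPM with Vehicle and at 2.13, 30.7 and 12.6 CPM with ABT263, with the same high libraries as Ogn (log2 fold change 2.72, SE 0.88, edgeR adjusted p = 0.592, and 1.68 without ABT263 replicate 2). Epyc, epiphycan of growth cartilage, stood at 13.8 CPM in ABT263 replicate 2 and at most at 0.951 CPM in any other library. It was at 0 in ABT263 replicate 3, which allows at most 0.0421 CPM, and its exons overlap those of Gm10754. Kera, keratocan of the cornea, had 0 reads in all 6 libraries, which allows at most 0.0278 to 0.0480 CPM per library. Ecm2 had a log2 fold change of 0.86 (SE 0.44, and 0.28 without ABT263 replicate 2) and Tsku, a secreted inhibitor of growth factor signals, 0.14 (SE 0.31). Podnl1 (-1.11), Chadl (0.11) and Nyx (0.80), at or below 3.88 CPM in every library, complete the family. Podnl1 ranged from -2.17 without ABT263 replicate 2 to -0.19 without Vehicle replicate 2, and Nyx was 0.38 without the latter.

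No enzyme that builds the sulfated chains passed the threshold, where edgeR called 0% of all genes tested and DESeq2 1.01%. At an unadjusted p under 0.05 edgeR listed 8.38% of all genes. These shares apply to each related list below. Of 22 kept genes that make the linker and the chondroitin or dermatan sulfate chain, edgeR and DESeq2 called 0 in either direction (15 positive, 7 negative, median log2 fold change 0.097). At an unadjusted p under 0.05 edgeR listed none of them. Csgalnact2, which starts chondroitin chains, stood at 42.6, 38.9 and 46.05 CPM with Vehicle and at 47.2, 54.4 and 61.4 CPM with ABT263, without overlap (log2 fold change 0.35, SE 0.17, edgeR adjusted p = 0.613). Of 9 kept genes for keratan sulfate and tyrosine sulfation, 0 were called by either tool (6 positive, 3 negative, median 0.12). B4galt4, a galactosyltransferase of keratan sulfate, stood at 12.5, 14.8 and 11.6 CPM with Vehicle and at 16.2, 18.1 and 15.02 CPM with ABT263, again without overlap (log2 fold change 0.35, SE 0.19, edgeR adjusted p = 0.666).

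Among 21 kept large and cell-surface proteoglycans, edgeR and DESeq2 called 0 (16 positive, 5 negative, median log2 fold change 0.41). DESeq2 gave no p-value for Spock2 and Gpc3, so its count says nothing on these genes. Sdc4, syndecan-4 of focal adhesions, stood at 117, 131 and 112 CPM with Vehicle and at 150, 136 and 158 CPM with ABT263 (log2 fold change 0.30, SE 0.17, edgeR adjusted p = 0.666). Spock2, a testican, stood at 0.204 to 0.965 CPM with Vehicle and at 1.90, 45.6 and 1.02 CPM with ABT263, so ABT263 replicate 2 set its log2 fold change of 4.56 (1.10 without it). Gpc3, a glypican named after its values were seen, was the other gene of this list at an unadjusted p under 0.05, at 199 CPM in ABT263 replicate 2 and at most at 0.982 CPM elsewhere (log2 fold change 8.01, and 1.23 without that library). Of 15 fibril-forming collagens and partners, the ligands of these proteoglycans on the fibril, edgeR and DESeq2 called 0 (12 positive, 3 negative, median 0.20). At an unadjusted p under 0.05 edgeR listed Tnxb on the higher side (log2 fold change 2.202, and 1.46 without ABT263 replicate 2) and Col11a1 (-1.45, and -0.72 without Vehicle replicate 3) and Col11a2 on the lower side, the first 2 named after their values were seen and both with groups that overlapped. Col11a2, a minor fibril collagen of cartilage, stood at 71.6, 75.7 and 137 CPM with Vehicle and at 48.2, 38.0 and 69.9 CPM with ABT263 (log2 fold change -0.86, SE 0.34, edgeR adjusted p = 0.592).

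Receptors and ligands that bind decorin or biglycan had fold changes of both signs. Of 16 kept, edgeR and DESeq2 called 0 (7 positive, 9 negative, median log2 fold change -0.086). At an unadjusted p under 0.05 edgeR listed P2rx4 and P2rx7 on the lower side and Egfr on the higher side. Egfr, a receptor of decorin named after its values were seen, overlapped between the groups (log2 fold change 1.23, SE 0.45). P2rx4 and P2rx7, ATP-gated channels through which soluble biglycan acts on macrophages, were lower in every ABT263 library. P2rx4 stood at 366, 262 and 274 CPM with Vehicle and at 199, 134 and 226 CPM with ABT263 (log2 fold change -0.69, SE 0.27, edgeR adjusted p = 0.592). P2rx7 stood at 71.0, 55.1 and 71.3 CPM with Vehicle and at 49.0, 36.0 and 52.0 CPM with ABT263 (log2 fold change -0.53, SE 0.21, edgeR adjusted p = 0.592). The macrophage sum, given above, was lower in every ABT263 library. Of its 11 genes 8 were without overlap, against 12% of all genes, while Cd68, Lgals3 and Mrc1 overlapped between the groups. The part of macrophage genes in the P2rx4 and P2rx7 values was not tested.

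Of 13 proteases that cut these proteoglycans, edgeR and DESeq2 called 0 (5 positive, 8 negative, median -0.074). At an unadjusted p under 0.05 edgeR listed 2 higher and 1 lower with ABT263. The 2 higher ones, named after their values were seen, overlapped between the groups. Mmp3, stromelysin, stood at 28.4, 83.3 and 48.5 CPM with Vehicle and at 149, 69.95 and 420.4 CPM with ABT263 (log2 fold change 1.996, SE 0.71, edgeR adjusted p = 0.592). Adamts5, an aggrecanase, stood at 12.2, 10.3 and 14.3 CPM with Vehicle and at 11.4, 66.3 and 31.0 CPM with ABT263 (log2 fold change 1.56, SE 0.59, edgeR adjusted p = 0.592). With 1 library left out, Mmp3 was as low as 1.03 (without ABT263 replicate 3) and Adamts5 as low as 0.80 (without ABT263 replicate 2). Gzmb, granzyme B of cytotoxic lymphocytes, which cuts decorin and biglycan, stood at 3.98, 7.34 and 2.41 CPM with Vehicle and at 0.248, 1.497 and 0.210 CPM with ABT263, without overlap (log2 fold change -2.82, SE 0.91, edgeR adjusted p = 0.592, DESeq2 adjusted p = 0.0575). The T cell marker list (5 of 5 kept, none at 0) summed to 39.3 to 89.0 CPM with Vehicle and to 11.4 to 34.1 CPM with ABT263, lower in the same libraries, and its part was not tested. Ctss, the lysosomal protease cathepsin S, stood at 4561, 4820 and 3280 CPM with Vehicle and at 3134, 1165 and 3035 CPM with ABT263 (log2 fold change -0.79, SE 0.48, edgeR adjusted p = 0.696), and it is also a gene of the macrophage list.

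The genes whose pattern was most like that of each member were found by the root mean square of the difference in centred log2 CPM over the same 6 libraries. This distance also grows with how much a gene varied, so distances of different members are not directly comparable. For Bgn they were Tiam2 (0.041), Ctgf (0.081), the growth factor-induced matricellular protein CCN2, and Chst3 (0.11), a chondroitin sulfotransferase. For Prelp they were Itgb5 (0.15), an integrin subunit, Chst3 (0.16) and Nav3 (0.16). For Lum they were Vcam1 (0.14), a leukocyte adhesion molecule, Slc7a2 (0.18), an arginine transporter, and Tnfrsf11b (0.21), osteoprotegerin. For Dcn they were Lnx1 (0.12), Serpine2 (0.13), a protease inhibitor, and Nr4a2 (0.13), a nuclear receptor. Chst3 stood at 21.1, 23.9 and 25.1 CPM with Vehicle and at 20.8, 26.9 and 42.0 CPM with ABT263, so it too was highest in ABT263 replicate 3.

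For Ogn the most like genes were Slc24a3 (0.13), a sodium, calcium and potassium exchanger, and Maob (0.18), monoamine oxidase B. Slc24a3 stood at 8.42, 5.64 and 6.66 CPM with Vehicle and at 7.35, 66.6 and 29.6 CPM with ABT263, with the same high libraries as Ogn. For Aspn they were Ssbp2 (0.078), Tmem110 (0.084) and Dstn (0.096), the actin-severing protein destrin. For Podn they were Mmd (0.15), Fam81a (0.16) and Nyap1 (0.19). For Omd they were P2ry12 (0.21), Cish (0.23) and Gpr85 (0.24). For Fmod they were Olfml3 (0.32), Gpr160 (0.34) and Thy1 (0.34). Among the 9 members Fmod had the largest distance to its nearest gene, not adjusted for how much each gene varied.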

How the data were processed

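RNA was measured by sequencing of 3 Vehicle and 3 ABT263 samples. Per the labels' protocols, RNA was extracted with the RNeasy Micro kit and 100 to 200 ng went into libraries of the TruSeq RNA Library Prep Kit v2. The authors deposited raw read counts by gene symbol, 1 column per library. Per the submitters' processing notes, featureCounts 1.4.6, Subread, TopHat2 2.0.14 and Bowtie2 2.2.6 are listed with mm10, without their roles. For the annotation, the strand setting and reads with several matches, the rule is not given in the sources used here.

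Groups came from sample titles, and replicate numbers only name the samples. Counts were analysed in R 4.3.3. The filterByExpr defaults (minimum count 10, minimum total 15) kept 15222 genes, and library sizes were TMM-scaled. Groups were compared in edgeR 4.0.16 by its quasi-likelihood F-test, with the group alone in the model, Benjamini-Hochberg adjustment over all genes and a threshold of 0.05. The code was also run on simulated counts whose spread was set in advance. That run does not measure the power of the test in these libraries. SE is the absolute log2 fold change over the square root of F. Alternatives were limma-voom (limma 3.58.1), DESeq2 1.42.0, other scalings, no filter and leaving out libraries. Levels per kb divide CPM by exon length in GENCODE M21 (GRCm38, which mm10 denotes), and positions come from it too. Ratios use counts and exact two-sided permutation tests, and intervals of counting error (3 counts for a count of 0) cover counting only. Likeness used log2 CPM (prior count 2) of genes whose mean was at least 1.

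The members and lists were chosen with earlier results of these data known. Named genes were all family genes, the 2 of smallest p per direction without overlap in each related list, and the 3 most like genes per member, of which 1 is not reported here. For Wisp1 and Emr1 the table uses older symbols than Ccn4 and Adgre1. The table listed all of the family.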

Additional observations from a re-analysis of the deposited data

How the results depend on the processing

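Of 108 recomputed member fold changes, 103 kept their direction and none passed the threshold. The direction turned in 5. Over the fits that left out 1 library, Bgn ranged from -0.020 to 0.43, Lum from -0.24 to 0.92, Prelp from -0.087 to 0.61 and Podn from -0.099 to 0.93 (log2). Dcn ranged from 0.27 to 0.85, Aspn from 0.42 to 1.16, Fmod from -1.06 to -0.33, Omd from -1.04 to -0.47 and Ogn from 1.25 to 2.60. Bgn, Lum and Prelp turned without ABT263 replicate 3 and Podn without ABT263 replicate 2. Without Vehicle replicate 2 and ABT263 replicate 2 together, Podn was -0.29, Epyc -2.72 and Chadl -0.14. In that fit Dcn was 1.03, Lum 1.09, Ogn 1.11 and Omd -1.05, outside the ranges above. Epyc ranged from -2.16 to 6.83, Chadl from -0.34 to 0.31 and Tsku from -0.16 to 0.40, and by limma-voom Chadl was -0.016. DESeq2 called 153 genes, among them 1 other family gene, Chad. Members without overlap numbered 0 with RLE size factors, 1 to 4 with 1 library left out and 4 without the replicate 2 pair. Over all genes, those without overlap numbered 1824 of 15222 (12%) in the main comparison and 1808 with RLE size factors. They numbered 2690 to 4867 with 1 library left out and 5918 without the pair, fits with fewer samples per group. The all-gene counts were thus higher in those smaller fits too, and the member counts there are a description. Genes at an unadjusted p under 0.05 by edgeR numbered 653 to 1867, the fewest without ABT263 replicate 2. With 1 library left out, the log2 ratio difference of Lum over Dcn ranged from -0.66 to 0.077. That of Aspn over Dcn ranged from -0.35 to 0.52 (-0.60 without the pair) and that of Podn over Dcn from -0.91 to 0.24 (-1.37 without the pair). These ratio fits were chosen after seeing the data. Beyond what these constructions show, the cause was not tested. No paired analysis was possible because the titles carry no replicate number shared between the groups. At these depths the limit that a count of 0 allows was 0.0278 to 0.0480 CPM per library.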
